A study of Mus musculus with 33 samples.

Results

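Meox1 and Meox2 are the mesenchyme homeobox genes of the mouse, and they were taken here as 2 genes of the 35349 gene symbols counted by RNA sequencing in whole embryonic kidneys. They were picked by name because earlier results of these data had shown a large fall of Meox2 in Six2 knockouts and a fall of Meox1 in heterozygotes at embryonic day 15.5 (E15.5). The knockout comparisons and the E15.5 heterozygous comparison therefore chose the pair, and the pair's values in them are given as a description without a test. The heterozygous comparison at E11.5, the comparison of the ages in wild-type kidneys, sex and batch were not named in that choice, and those were tested. They share specimens with the comparisons that chose the pair (the E11.5 wild types and heterozygotes, and the E15.5 wild types), so they are not independent of that choice.

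The groups were E15.5 kidneys heterozygous for Six2 (4 specimens, 8 libraries) and wild type (4 specimens, 8 libraries), and E11.5 kidneys with the Six2 knockout (5 embryos, 5 libraries), heterozygous (5 embryos, 6 libraries) and wild type (6 embryos, 6 libraries). Both sexes were present in every group. The labels name the genotype at Six2 alone and state no strain, allele, promoter or Cre line, and no group carried another stated treatment. The batch 1 titles of the E15.5 heterozygotes carry the prefix GCE, and those of the E15.5 wild types Cont. The labels do not explain these prefixes, nor say whether the Six2 allele was the same at both ages. They do not say whether a specimen is 1 animal or a pool, so the p-values rest on the spread among these specimens, which may be partly technical. Six2 codes for a homeodomain protein that holds nephron progenitors in the undifferentiated state.

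Meox1 and Meox2 encode closely related homeodomain transcription factors that bind DNA through a helix-turn-helix homeodomain. In the mouse embryo both are best known from the somites, where they act together in the formation of the axial skeleton and, for Meox2, of limb muscle. Meox2 is also known from the vascular wall and the heart's endothelium, where it restrains the cell cycle in vascular cells and takes part in fatty acid uptake. Their targets include genes of the cartilage-forming part of the somite, such as Uncx and Nkx3-2.

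In the GENCODE vM21 annotation of the mm10 build (GRCm38), Meox1 (ENSMUSG00000001493) lies on the minus strand at chr11:101877510-101894374 and Meox2 (ENSMUSG00000036144) on the plus strand at chr12:37108540-37179534. Each has 1 annotated transcript with 3 exons. The antisense gene Gm11551 overlaps Meox1, and without a stated strand setting its reads cannot be told from those of Meox1 where they overlap. It held 92 counts over all 33 libraries, against 24403 counts of Meox1. A sense intronic gene, Gm48617, overlaps Meox2 and has no counts of its own here.

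Library depth, in units of 1000000 counts, lay between 10.82 and 42.07. At E11.5, genes of ribosomal RNA took 0.868 to 11.6% of counts in knockout, 3.49 to 17.2% in heterozygous and 18.8 to 24.8% in wild-type libraries of batch 1, against at most 0.442% in batch 2. The share was 0.373 to 1.02% at E15.5. Six2, the gene under study, averaged 0.473 ± 0.134 counts per 1000000 counts (CPM) in knockout, 13.1 ± 2.88 in heterozygous and 25.0 ± 5.63 in wild-type kidneys at E11.5 (SD, n = 5, 5 and 6). At E15.5 it averaged 6.15 ± 0.342 CPM in heterozygous and 11.7 ± 0.834 in wild-type kidneys (SD, n = 4 each). The 20 nephron progenitor markers, whose level checks the labelled tissue, were all counted and summed to between 900.0 CPM in a knockout and 2173 CPM in a wild-type kidney at E11.5.

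Meox1 was strongly reduced without Six2. It stood at 29.6, 17.5, 19.7, 19.0 and 27.6 CPM in the 5 knockout embryos, against 67.1, 61.1, 62.8, 55.4 and 64.3 CPM in the 5 heterozygous embryos. In the 6 wild-type embryos the lowest, median and highest levels were 52.8, 76.0 and 94.8 CPM. Every knockout lay below every heterozygote and every wild type, while the heterozygotes lay inside the wild-type range. For this and the later separations of groups, the share of all genes that lie apart is not given. The separations are therefore descriptions.

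Meox1 averaged 22.7 ± 5.49 CPM in knockout, 62.2 ± 4.38 in heterozygous and 74.9 ± 14.4 in wild-type kidneys (SD, n = 5, 5 and 6). The knockout mean was 30.3% of the wild-type mean and the heterozygous mean 82.9%. The log2 fold change was -1.66 ± 0.14 (SE) for knockout over wild type and -1.36 ± 0.15 for knockout over heterozygous. Among 16141 genes tested, 650 fell in knockout against wild-type kidneys (4.03% of genes; 7.09% differed in either direction), and nothing about the pair is read from that share because this comparison chose it.

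Meox2 showed a deeper reduction from a lower starting level. Its counts in the knockouts were 65, 23, 42, 30 and 45, which correspond to 3.33, 2.23, 2.59, 1.68 and 2.62 CPM. The heterozygous embryos held 15.1, 23.0, 25.4, 11.8 and 12.6 CPM. The wild-type embryos held 12.9 CPM at the lowest, 22.5 at the median and 35.6 at the highest. Knockouts again lay apart from both other genotypes, with a gap between the highest knockout and the lowest heterozygote, and heterozygotes overlapped the wild types.

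Meox2 averaged 2.49 ± 0.602 CPM in knockout, 17.6 ± 6.21 in heterozygous and 23.1 ± 8.59 in wild-type kidneys (SD, n = 5, 5 and 6). The knockout mean was 10.8% of the wild-type mean and the heterozygous mean 76.3%. The log2 fold change was -3.22 ± 0.19 (SE) for knockout over wild type and -2.81 ± 0.20 for knockout over heterozygous, a comparison in which 3.69% of all genes differed. In these bulk samples fewer cells that make an RNA and less RNA per cell cannot be told apart.

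The reductions were seen in each batch. These fits reuse the embryos of the comparison that chose the pair, so they are descriptions and lend it no support. The part of the ribosomal share in them was not tested. In batch 2, where ribosomal shares were low in all genotypes, the log2 fold change of knockout over wild type was -1.92 ± 0.15 for Meox1 and -2.94 ± 0.30 for Meox2. In batch 1 it was -1.41 ± 0.18 for Meox1 and -3.38 ± 0.23 for Meox2. Meox2 changed more than Meox1 in both batches, while the Meox1 reduction was larger in batch 2 and the Meox2 reduction larger in batch 1, differences that were not tested.

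**Figure D1:**
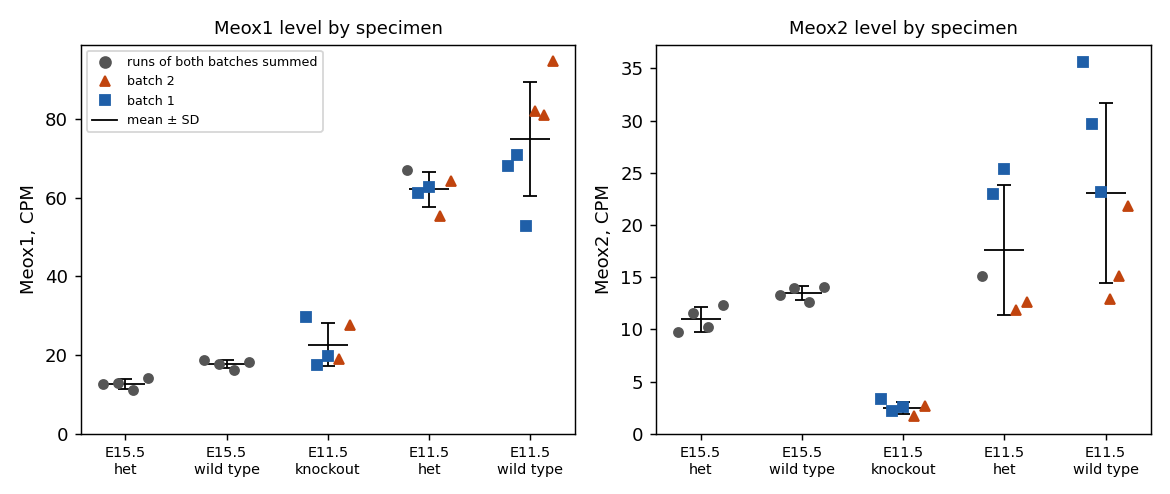
Level of Meox1 (left) and Meox2 (right) in CPM on a linear axis from 0, by group; each point is a specimen, its shape and colour give the batch of its libraries, and bars are mean ± SD. Meox1 averaged 22.7 CPM in knockouts against 74.9 CPM in wild types at E11.5 and 12.7 CPM in heterozygotes against 17.8 CPM in wild types at E15.5, while Meox2 was lowest in knockouts at 2.49 CPM.

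The heterozygous comparison at E11.5 asked whether loss of 1 Six2 copy lowers the pair. Neither gene passed. The log2 fold change of heterozygous over wild type was -0.31 ± 0.13 for Meox1 (SE; 95% interval -0.58 to -0.03, edgeR adjusted p = 0.570) and -0.41 ± 0.16 for Meox2 (-0.75 to -0.08, edgeR adjusted p = 0.557). Unadjusted p-values were 0.0306 and 0.0185, so 2 of 2 were under 0.05 before adjustment, and DESeq2 called 0 of 2. Over all genes, edgeR called 0.0681% in this comparison. The size of the Meox1 difference moved with the batch. It was -0.47 ± 0.12 in batch 2 alone and -0.17 ± 0.22 in batch 1 alone (SE, edgeR adjusted p = 0.644 and 0.914). Once libraries with over 5% ribosomal counts were left out it was -0.50 ± 0.14 (edgeR adjusted p = 0.461). Every heterozygous embryo with a batch 1 library was male, and those run in batch 2 alone were female. All batch 1 knockouts were female, so the sex term of the batch 1 fit rests on its wild types. The part of sex in the difference between batches was not tested.

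Among embryos run in a single batch, Meox1 stood at 55.4 and 64.3 CPM in batch 2 heterozygotes, against 81.1 to 94.8 CPM in batch 2 wild types. In batch 1 it stood at 61.1 and 62.8 CPM in heterozygotes, against 52.8 to 70.8 CPM in wild types. The genotypes thus lay apart in batch 2 and overlapped in batch 1. Meox2 stood at 11.8 and 12.6 CPM in batch 2 heterozygotes, against 12.9 to 21.8 CPM in batch 2 wild types. In batch 1 it stood at 23.0 and 25.4 CPM in heterozygotes, against 23.2 to 35.6 CPM in wild types. An exact two-sided permutation test of log2 CPM over 462 splits gave p = 0.0996 for Meox1 and p = 0.264 for Meox2, or 0.149 and 0.317 adjusted over the 6 permutation tests run on the pair. These splits pool the batches, while the edgeR fit holds batch, a term that Meox2 moved with. The heterozygous fall in mean CPM amounted to 24.5% of the knockout fall for Meox1 and 26.6% for Meox2, against 48.6% for Six2 itself. Within the batches the share for Meox1 was 41.7% in batch 2 and 4.58% in batch 1, so the pooled value describes neither. It was 30.3% in batch 2 and 19.8% in batch 1 for Meox2, and 53.4% and 46.7% for Six2 in the same order. These shares are descriptions, and their differences were not tested.

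At E15.5 the heterozygotes and wild types separated. Meox1 was at 12.6, 13.0, 11.1 and 14.2 CPM in heterozygous kidneys, against 18.7, 17.8, 16.2 and 18.3 CPM in wild-type kidneys. Meox2 was at 9.76, 11.5, 10.2 and 12.4 CPM in heterozygous kidneys, against 13.3, 14.0, 12.6 and 14.0 CPM in wild-type kidneys. For both genes every heterozygote lay below every wild type, though for Meox2 the highest heterozygote came close to the lowest wild type. The share of all genes that separate in this way is not given, so nothing about the pair is read from it.

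The heterozygous means were 71.5% of the wild-type mean for Meox1 (12.7 ± 1.27 against 17.8 ± 1.11 CPM; SD, n = 4 each) and 81.5% for Meox2 (10.98 ± 1.20 against 13.5 ± 0.682 CPM). The log2 fold change was -0.50 ± 0.06 (SE) for Meox1 and -0.31 ± 0.06 for Meox2. Over all genes 0.57% differed, 0.362% downward. The heterozygous effect at E15.5 minus that at E11.5 was -0.20 ± 0.20 for Meox1 and 0.14 ± 0.35 for Meox2 on the log2 scale, given without a test because the E15.5 effect had chosen the pair.

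**Figure D2:**
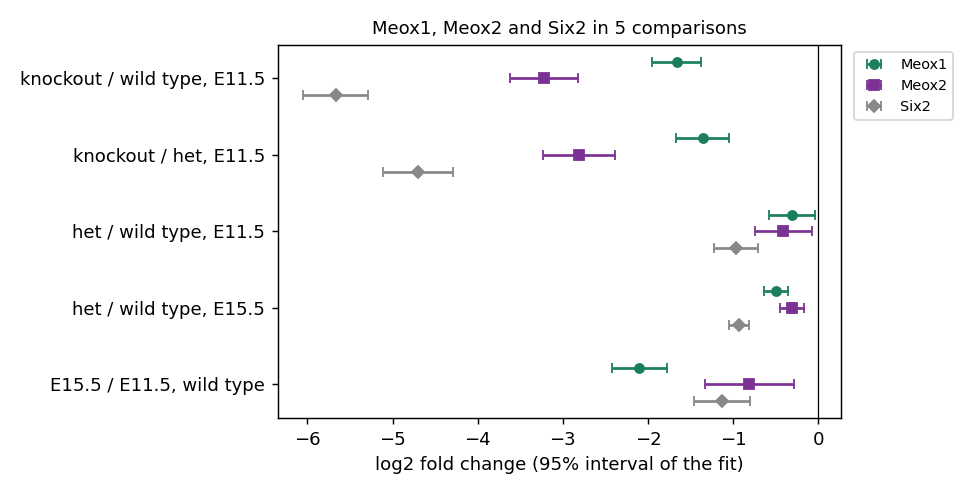
Log2 fold change of Meox1, Meox2 and Six2 in 5 comparisons, with 95% intervals of the edgeR fit; the vertical line marks no difference. In knockout over wild-type kidneys Meox1 was at -1.66 and Meox2 at -3.22, whereas in heterozygous over wild-type kidneys at E11.5 they were at -0.31 and -0.41.

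Between the ages, both genes were lower in older wild-type kidneys. Meox1 at E15.5 was 23.7% of its E11.5 mean, with a log2 fold change of -2.10 ± 0.16 (SE, edgeR adjusted p = 1.57e-10), and all 4 E15.5 kidneys lay below all 6 E11.5 kidneys. Meox2 at E15.5 was 58.4% of its E11.5 mean, with a log2 fold change of -0.81 ± 0.25 (edgeR adjusted p = 0.0101). Its groups overlapped, as 1 of the 4 E15.5 kidneys lay below all E11.5 kidneys. Both members were called, in a comparison in which 52.5% of all genes were called.

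The exact two-sided permutation tests over 210 splits gave p = 0.00952 for Meox1, the smallest these splits can give, and p = 0.0476 for Meox2, or 0.0286 and 0.0952 adjusted over the 6 tests. Within batch 1 the Meox2 log2 fold change between the ages was -1.02 ± 0.14 (edgeR adjusted p = 5.55e-06), and within batch 2 it was -0.41 ± 0.17 (edgeR adjusted p = 0.0413). Without the libraries above 5% ribosomal counts it was -0.30 ± 0.22 and was not called (edgeR adjusted p = 0.258). Meox1 was called within batch 1 (-1.89 ± 0.14) and within batch 2 (-2.28 ± 0.13). The titles differ in form between the ages and do not show whether a batch number means the same run at both. Age and run may therefore not be separable, also within a batch number. In heterozygous kidneys, E15.5 over E11.5, the change was -2.30 ± 0.16 for Meox1 and -0.67 ± 0.25 for Meox2, given as a description.

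By mean level Meox1 was highest in E11.5 wild-type kidneys, followed by E11.5 heterozygous, E11.5 knockout, E15.5 wild-type and E15.5 heterozygous kidneys. The first and second of these overlapped, and so did E11.5 knockouts with E15.5 wild types. For Meox2 the order was E11.5 wild type, E11.5 heterozygous, E15.5 wild type, E15.5 heterozygous and E11.5 knockout. There the first and second overlapped, as did E11.5 heterozygotes with E15.5 wild types.

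Levels of the 2 genes were compared with each other per length, as CPM per 1000 bases of the deposited gene length (RPKM; 2231 bases for Meox1 and 2363 for Meox2). Mean Meox1 levels were 10.2 RPKM in knockout, 27.9 in heterozygous and 33.6 in wild-type kidneys at E11.5. Mean Meox2 levels were 1.05, 7.44 and 9.75 RPKM in the same order. Meox1 was thus the more abundant of the pair in each E11.5 group.

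The ratio of Meox2 to Meox1, in RPKM, was 0.105 ± 0.018 in knockout, 0.267 ± 0.0933 in heterozygous and 0.308 ± 0.145 in wild-type kidneys at E11.5 (SD, n = 5, 5 and 6). At E15.5 it was 0.817 ± 0.0605 in heterozygous and 0.717 ± 0.0338 in wild-type kidneys (SD, n = 4 each), so the 2 genes were closer to each other in level. Between the ages in wild-type kidneys the log2 ratio differed by 1.37 (mean -0.48 at E15.5 and -1.85 at E11.5; exact two-sided permutation p = 0.00952, adjusted 0.0286), with no overlap. Between heterozygous and wild-type kidneys at E11.5 it differed by -0.125 (exact two-sided permutation p = 0.74, adjusted 0.74).

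Within each E11.5 genotype the ratio split by batch among embryos run in a single batch. The batches thus compare different embryos here. It was 0.0836 to 0.0896 in batch 2 knockouts and 0.106 to 0.124 in batch 1 knockouts. In heterozygotes it was 0.185 to 0.201 in batch 2 and 0.355 to 0.382 in batch 1. The heterozygote run in both batches had a ratio of 0.212 with its runs summed, between these ranges. Its batch 1 run held 17.6 CPM of Meox2 and 63.8 of Meox1, and its batch 2 run 13.9 and 68.6 CPM. In wild types it was 0.149 to 0.217 in batch 2 and 0.396 to 0.494 in batch 1. The E15.5 wild-type ratios of 0.668 to 0.743 lay above all of these.

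**Figure D3:**
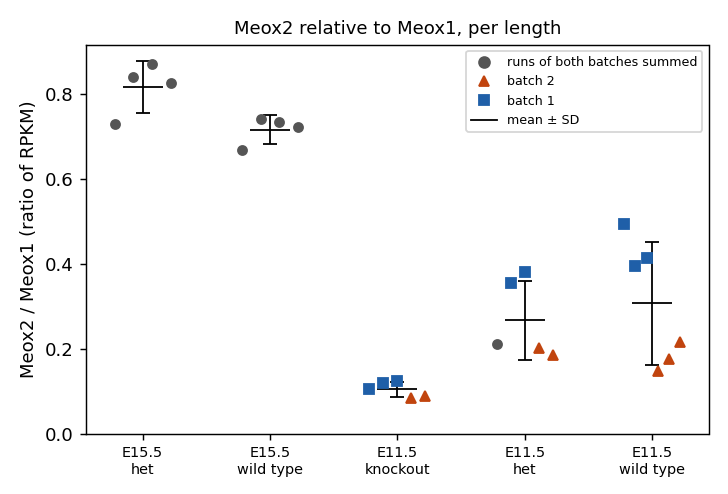
Ratio of Meox2 to Meox1 in RPKM, on a linear axis from 0, by group; each point is a specimen, its shape and colour give the batch, and bars are mean ± SD. The ratio was 0.817 in heterozygous and 0.717 in wild-type kidneys at E15.5, against 0.105 in knockout, 0.267 in heterozygous and 0.308 in wild-type kidneys at E11.5. There, embryos run in batch 2 alone lay below those run in batch 1 alone in each genotype.

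Meox2 and not Meox1 differed between the E11.5 batches past the test. These batches held different embryos, apart from 1 heterozygote run in both, so run and embryo cannot be told apart in that fit. In that heterozygote Meox2 was at 13.9 CPM in the batch 2 run and 17.6 CPM in the batch 1 run. In the E11.5 fit, batch 2 over batch 1 was -0.79 ± 0.15 on the log2 scale for Meox2 (SE, edgeR adjusted p = 0.000243) and 0.20 ± 0.11 for Meox1 (edgeR adjusted p = 0.140), while 52.8% of all genes were called. In wild-type embryos Meox2 averaged 16.6 CPM in batch 2 and 29.5 CPM in batch 1, and Meox1 averaged 86.0 CPM in batch 2 and 63.9 CPM in batch 1. All 8 specimens of E15.5 were run in both batches, and in 8 of 8 the batch 2 run had less Meox2 than the batch 1 run (mean 10.97 ± 1.69 against 13.3 ± 1.74 CPM; SD, n = 8). The mean log2 difference of batch 2 over batch 1 in these 8 specimens was -0.28 ± 0.11 (SD) for Meox2. At that age the ribosomal shares of the batches overlapped. Meox1 was lower in the batch 2 run in 3 of 8. The titles do not show whether the batches at E11.5 and at E15.5 were the same runs.

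Sex did not move either gene past the test. Male minus female was 0.16 ± 0.12 for Meox1 and 0.04 ± 0.15 for Meox2 at E11.5 on the log2 scale (SE, edgeR adjusted p = 0.715 and 0.964). At E15.5 it was -0.10 ± 0.08 for Meox1 and -0.15 ± 0.07 for Meox2 (edgeR adjusted p = 0.646 and 0.465). Unadjusted p-values were under 0.05 in 0 of these 4 tests, and over all genes 0.0743% were called at E11.5 and 0.121% at E15.5. The female specimens at E15.5 were 1 in each genotype.

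Among 13 genes named as partners, reported targets or target pathway genes of the MEOX proteins, 10 could be tested in E11.5 kidneys. In knockout against wild-type kidneys 2 rose, 1 fell and 7 did not pass, with a median log2 fold change of -0.05, against -0.002 over all genes. Over all genes 3.06% rose and 4.03% fell in that comparison. Uncx, a paired-type homeobox gene of the posterior part of the somite that is a reported MEOX1 target in mouse somites, averaged 20.4 CPM in knockout, 60.0 in heterozygous and 64.2 in wild-type kidneys. Its log2 fold change was -1.62 ± 0.21 over wild type (SE, edgeR adjusted p = 0.000105) and -1.45 ± 0.22 over heterozygous (edgeR adjusted p = 0.00124).

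Cd36, a fatty acid transporter, rose by 1.49 ± 0.27 on the log2 scale, to 11.04 CPM in knockout against 4.09 CPM in wild-type kidneys (edgeR adjusted p = 0.00252). Lpl, the lipoprotein lipase gene, rose by 0.39 ± 0.09 (edgeR adjusted p = 0.0112). Without the libraries above 5% ribosomal counts Uncx was at -1.55 ± 0.25 (edgeR adjusted p = 0.00789), and it was the 1 gene called of 11 tested. There Cd36 was at 1.26 ± 0.42 (edgeR adjusted p = 0.163) and Lpl at 0.38 ± 0.14 (edgeR adjusted p = 0.194), neither called. Tcf15, a helix-loop-helix factor of the somite epithelium, was at -0.06 ± 0.18 (edgeR adjusted p = 0.898), and the cell cycle inhibitor gene Cdkn1a at 0.32 ± 0.25 (edgeR adjusted p = 0.525). Pax1, Cdkn2a and Fabp4 were too low to test at E11.5.

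In heterozygous against wild-type kidneys edgeR called 0 of 10 of these genes at E11.5 and 0 of 9 at E15.5, with 3 under an unadjusted p of 0.05 at each age and 0 called by DESeq2. Between the ages Uncx did not pass the test. It averaged 59.3 CPM in wild-type kidneys at E15.5, a log2 change of -0.17 ± 0.24 against E11.5 (edgeR adjusted p = 0.59). Fabp4, a fatty acid binding protein gene, averaged 101 CPM in wild-type kidneys at E15.5 and 0.316 CPM at E11.5. Nkx3-2 and Pax3, transcription factor genes of the somite, averaged 0.0314 and 0.0115 CPM at E15.5, against 3.14 and 2.49 CPM at E11.5.

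The wider somite list was searched because the pair is best known from that tissue. Of its 12 tested genes, 1 rose and 4 fell in knockout against wild-type kidneys, with a median of -0.27. Over all genes 3.06% rose and 4.03% fell. The segmentation repressor gene Ripply2 fell by 2.18 ± 0.47, Uncx as above, the tendon factor gene Scx by 0.93 ± 0.14 and the forkhead gene Foxc2 by 0.27 ± 0.07, while the T-box gene Tbx18 rose by 0.57 ± 0.10 (SE). Without the libraries above 5% ribosomal counts 0 rose and 2 fell. The list's summed level overlapped between genotypes, at 537 to 595 CPM in knockout, 564 to 683 in heterozygous and 535 to 682 CPM in wild-type kidneys. Between the ages 0 rose and 8 of 12 fell, with a median of -1.22, in a comparison in which 52.5% of all genes were called.

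The summed level of skeletal muscle markers in knockouts lay below the wild types and overlapped the heterozygotes. It was 120 to 169 CPM in knockout, 164 to 278 in heterozygous and 201 to 327 CPM in wild-type kidneys. The calls of this paragraph are for knockout against wild-type kidneys, where 3.06% of all genes rose and 4.03% fell. Of 8 muscle genes tested, 1 was lower (Des, -0.83 ± 0.10) and 1 higher (Tnnt3, 0.57 ± 0.13). Without the libraries above 5% ribosomal counts 0 were higher and 1 was lower. The part of muscle or somite tissue in the level of the pair was not tested. Markers of renal stroma (0 of 14 called, median 0.07) and endothelium (0 of 16, median 0.01) were not called in edgeR, with 3 and 0 genes under an unadjusted p of 0.05 and 1 and 0 called by DESeq2. Of the vascular smooth muscle and pericyte markers 1 of 10 rose (Rgs5, 0.55 ± 0.12), with a median of -0.18. Homeobox relatives of the pair had 0 of 5 called in edgeR and in DESeq2, with 1 under an unadjusted p of 0.05 and a median of 0.58.

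The nephron progenitor list, which holds neither Six2 nor the pair, fell in 12 of 20 genes and rose in 0 in knockout against wild-type kidneys, with a median of -0.72. Over all genes 4.03% fell in that comparison. Several of the list's genes had been picked with earlier results of these data known, so their direction is not independent evidence. Crym, a thyroid hormone binding protein gene, fell by 4.88 ± 0.30, the proteoglycan gene Spock2 by 2.47 ± 0.17, the calpain gene Capn6 by 1.54 ± 0.10 and the Wnt agonist gene Rspo1 by 1.53 ± 0.16 (SE). The list's sum did not overlap, at 900.0 to 1049 CPM in knockouts against 1519 to 2173 CPM in wild types. Without the libraries above 5% ribosomal counts 9 of 20 fell. In heterozygotes Cited1 and Crym fell at E11.5 (-1.29 ± 0.19 and -1.27 ± 0.22), whereas at E15.5 1 gene of the list rose (Eya1, 0.28 ± 0.03) and 5 fell, led by Cited1 (-1.59 ± 0.04) and Crym (-0.74 ± 0.04). Over all genes 0.0681% differed between heterozygous and wild-type kidneys at E11.5 and 0.57% at E15.5.

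Macrophage markers rose beside the fall of the pair. In knockout against wild-type kidneys 10 of 11 rose, with a median of 0.93, and their sum was 117 to 267 CPM in knockout, 110 to 198 in heterozygous and 79.1 to 159 CPM in wild-type kidneys. None of the 11 was at 0. Over all genes 3.06% rose in knockout against wild-type kidneys. Without the libraries above 5% ribosomal counts edgeR called 0 of 11, with 10 under an unadjusted p of 0.05 and a median of 0.77, and there the pair stood at -1.86 ± 0.16 for Meox1 and -3.07 ± 0.24 for Meox2. The part of macrophage content in the fall of the pair was not tested.

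The median summed level of neural and glial markers was 225.4 CPM in knockout, 119.1 in heterozygous and 167.3 CPM in wild-type kidneys at E11.5. The sums ran over 139.8 to 232.6 CPM in knockout, 104.2 to 159.8 in heterozygous and 70.1 to 224.9 CPM in wild-type kidneys, so the genotypes overlapped. In knockout against wild-type kidneys 0 of 10 were called in edgeR and in DESeq2, with 6 under an unadjusted p of 0.05 and a median of 0.62, against -0.002 over all genes. Against heterozygotes 0 of 10 were called by either tool, with 7 under an unadjusted p of 0.05 and a median of 0.89. When libraries above 5% ribosomal counts were left out, 1 of 10 rose in knockout against wild-type kidneys, with a median of 0.60. None of the 10 was at 0, and the part of neural tissue in the fall of the pair was not tested.

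Other lists were counted in the same way in knockout against wild-type kidneys, where 3.06% of all genes rose and 4.03% fell. Of 15 early nephron genes 5 rose, led by Cdh6 and Pax8, and 1 fell (Cxcr4), with a median of 0.27. Without the libraries above 5% ribosomal counts 2 rose and 0 fell. Of 17 ureteric bud genes 4 rose, led by Tfcp2l1 and Calb1, and 3 fell (Etv4, Etv5 and Gfra1), with a median of 0.38. Erythroid markers had 0 of 10 called in edgeR and DESeq2, none under an unadjusted p of 0.05, and a median of -0.53.

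Within 500 kb of Meox1 on chromosome 11, 55 other genes are annotated, 50 are in the table and 32 could be tested at E11.5. In knockout against wild-type kidneys 0 of these 32 rose and 2 fell, with a median log2 fold change of -0.01, where 7.09% of all genes differed. Etv4, an ETS factor gene of the ureteric bud tip 92.1 kb away, averaged 32.0 CPM in knockout, 74.2 in heterozygous and 72.5 in wild-type kidneys (-1.13 ± 0.17 over wild type, edgeR adjusted p = 0.000453). Rundc1, 442 kb away, was at -0.27 ± 0.08 (edgeR adjusted p = 0.0429).

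The tested genes nearest to Meox1 did not pass in knockouts. Sost, which encodes the Wnt inhibitor sclerostin, was at -0.25 ± 0.30 (edgeR adjusted p = 0.705), and the phosphatase gene Dusp3 at -0.10 ± 0.07 (edgeR adjusted p = 0.462). In heterozygous against wild-type kidneys edgeR and DESeq2 called 0 of 32 neighbours at E11.5 and 0 of 33 at E15.5, with 3 and 2 under an unadjusted p of 0.05. Between the ages, where the background was 52.5%, 4 of 33 rose and 8 fell. Meox2 sits in a sparser region: 11 genes are annotated within 500 kb, 3 are in the table, and only Agmo, an ether lipid monooxygenase gene 62.1 kb away, was tested, at E15.5 (0.26 ± 0.30, edgeR adjusted p = 0.896).

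The bases before the Meox2 start, the gene with the deeper change, are shown for reference from the RefSeq table (GRCm38.p6, plus strand, chr12:37108290-37108539, 250 bases, 62.0% G or C). The table held 1 of the 2 genes.
Meox2 promoter: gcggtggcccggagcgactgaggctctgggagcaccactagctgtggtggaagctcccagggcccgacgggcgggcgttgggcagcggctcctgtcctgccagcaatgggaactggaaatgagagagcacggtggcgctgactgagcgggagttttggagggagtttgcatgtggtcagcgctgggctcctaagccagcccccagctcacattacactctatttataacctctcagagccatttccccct

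A pair of motifs was searched on both strands of this window. TAATTA, a core recognised by many homeodomains and its own reverse complement, had 0 matches here and occurred in 4.84% of 32851 promoters of the same length. TCAGGTT, a part of the motif reported for SIX2, reads AACCTGA on the other strand. It had 0 matches here and occurred in 3.49% of those promoters. These letters are not in this window, and nothing follows from that about binding elsewhere.

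Genes with the profile most like each member across the 5 groups were ranked by the root mean square difference of group mean log2 CPM after centring, among 14786 genes with a mean of at least 1 CPM. The measure rests on 5 group means that include the comparisons that chose the pair, so it is a description. Nearest to Meox2 was Phf19, a Polycomb-associated factor gene, at a distance of 0.107. It averaged 33.0 ± 1.67 CPM in E15.5 heterozygous and 44.0 ± 0.903 in E15.5 wild-type kidneys, and 8.51 ± 1.61 in knockout, 46.1 ± 3.99 in heterozygous and 67.1 ± 18.4 CPM in wild-type kidneys at E11.5 (SD). Spock2 followed at 0.255, Colq, the collagen tail gene of acetylcholinesterase, at 0.297, and Pnmt, the gene of the adrenaline-forming enzyme, and the predicted gene Gm12829 at 0.348 each.

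Nearest to Meox1 were the glutathione peroxidase gene Gpx6 at 0.259, Sobp at 0.281 and the alpha-actinin gene Actn3 at 0.323. The mitochondrial ribosomal RNA gene mt-Rnr1 at 0.330 and the predicted gene Gm24245 at 0.339 came next. Both had an SD above the mean in each E11.5 genotype, so their ranks rest on loosely estimated means. In knockouts mt-Rnr1 was at 2459 ± 3966 CPM and Gm24245 at 1.50 ± 3.01 CPM (SD). Sobp averaged 5.94 ± 1.17 CPM in knockout, 12.6 ± 3.23 in heterozygous and 17.8 ± 4.02 CPM in wild-type kidneys at E11.5 (SD). The gene mt-Rnr1 is one of those counted in the ribosomal share, and the part of that share in the ranking was not tested. The pair did not resemble each other by this measure, as Meox2 ranked 9369 among the 14786 genes by nearness to Meox1, and Meox1 ranked 3998 by nearness to Meox2.

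**Figure D4:**
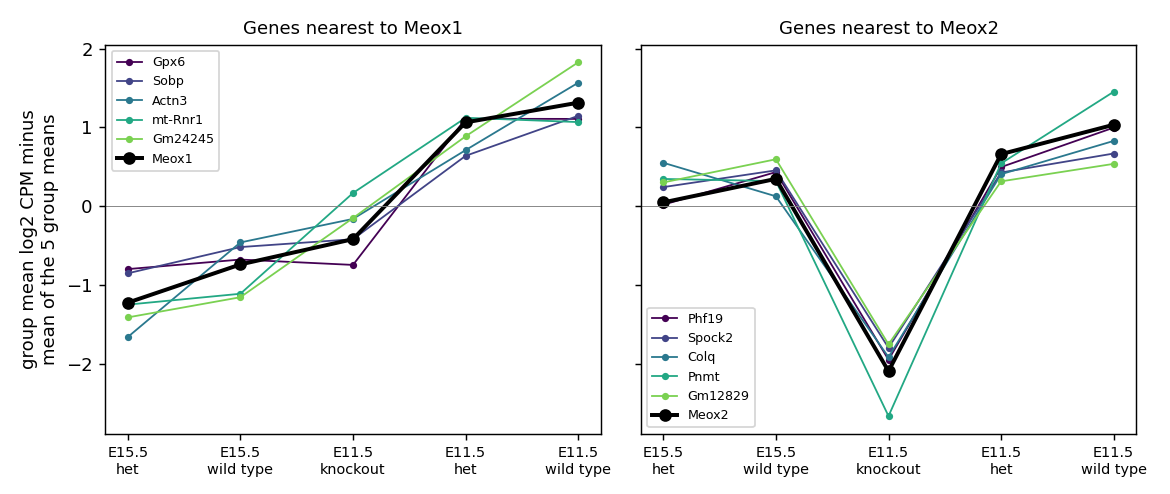
Centred group mean log2 CPM (each gene's group mean minus the mean of its 5 group means) for Meox1 (left) and Meox2 (right), drawn thick, and the 5 genes nearest to each; each point is a group. Meox1 and its nearest genes were lowest in E15.5 heterozygotes, though Gpx6 was close to that level in knockouts (-0.797 against -0.744). Meox2 and its nearest genes, led by Phf19 at a distance of 0.107, were lowest in knockouts.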

How the data were processed

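RNA of snap-frozen kidneys was extracted with Qiagen RNeasy micro columns before Illumina library preparation, per the labels' protocols. The authors deposited raw read counts per gene symbol. STAR 2.4.0h1, featureCounts 1.4.6 and mm10 are named, per the submitters' processing notes. Annotation, strand setting and the treatment of multi-mapping reads are not given in the sources used here. GENCODE vM21 matched 32405 symbols.

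Counts of runs of 1 specimen were summed, which left 24 specimens. At E15.5 runs share a technical replicate number; at E11.5 1 heterozygous embryo was run in both batches, as its title shows. Genes were kept by filterByExpr (minimum count 10, total 15), scaled with TMM factors and tested with edgeR 4.0.16 (R 4.3.3; DESeq2 1.42.0 was the alternative), with a quasi-likelihood F test and Benjamini-Hochberg adjustment at 0.05 over all genes tested. The fits were genotype, sex and batch at E11.5 (16 embryos, batch coded 0.5 for the embryo run in both), genotype and sex at E15.5 (8 specimens), and group and sex over 24 specimens between ages (17362 genes). CPM use scaled library sizes, and log2 CPM a prior count of 2. Permutation tests were exact. The fits were tested on simulated data.

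Titles at E11.5 carry a replicate number identical to the batch, so batch was the replicate block: embryos of other genotypes in the same batch had residuals correlated at a median of 0.273 (-0.0285 to 0.541 over 37 pairs), those in the other batch at -0.272. The members, the 13 lists, the rule for named genes (members, Six2, neighbours within 500 kb, the 5 genes nearest in profile, up to 4 called genes with the largest change per list, all partners) and the alternatives were chosen with earlier results of these data known. Foxc2 and Gfra1 were named outside that limit, after their values were seen. Ribosomal share means counts on annotated ribosomal RNA genes plus Yam1, Lars2, Gm15564 and Mir6236. A coding sequence and 1 marker gene are not reported here.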

Additional observations from a re-analysis of the deposited data

How the results depend on the processing

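All log2 fold changes of Meox1 and Meox2 in the 5 comparisons stayed below 0 under every alternative run. The knockout comparisons and the E15.5 heterozygous comparison chose the pair, so their sign in these reruns is a description. In heterozygous against wild-type kidneys at E11.5 neither was called in any of 26 alternatives each, and leaving out 1 embryo gave -0.36 to -0.24 for Meox1 and -0.57 to -0.32 for Meox2; with no replicate block (batch left out) they were -0.31 and -0.49, in batch 2 alone -0.47 and -0.39, in batch 1 alone -0.17 and -0.42, and without libraries above 5% ribosomal counts -0.50 and -0.36. The Meox2 change between ages was -0.30 (adjusted p = 0.258) without libraries above 5% ribosomal counts, which leaves only batch 2 wild types at E11.5; leaving out 1 specimen gave -1.01 to -0.67 (adjusted p 0.00107 to 0.0430). Meox1 in knockout over heterozygous kidneys was -0.93 when the prefix of the titles replaced batch as block; the cause was not tested.

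Counts of genes called depended on the setting. In heterozygous against wild-type kidneys at E11.5 edgeR called 11, DESeq2 43, edgeR without a filter 32, with no replicate block 1, in batch 1 alone 0 (1066 under an unadjusted p of 0.05), in batch 2 alone 2, without libraries above 5% ribosomal counts 1, and leaving out 1 embryo 1 (without heterozygous replicate 4) to 17 (without wild-type replicate 3). In knockout against wild-type kidneys 1144 became 439 with no replicate block, 265 in batch 1, 168 in batch 2, 492 with that prefix block, 349 without the high-ribosomal libraries and 694 (without knockout replicate 5) to 1180 leaving out 1 embryo. In knockout against heterozygous kidneys 595 became 1015 with DESeq2, 154 with no replicate block, 7 in batch 1, 56 in batch 2, 299 without those libraries and 219 (without knockout replicate 5) to 769. At E15.5 104 became 43 in batch 2 alone, 66 (without wild-type replicate 3) to 79 leaving out 1 specimen, and 86 with a replicate block by title number; specimens sharing such a number did not deviate together (correlations of -0.204 to 0.343). At E15.5 the genotype difference of the pair was not tested, so that block had no call to change. In heterozygous against wild-type kidneys at E11.5 the pair was not called with batch as block or with batch left out. Fewer embryos enter the batch, ribosomal and leave-one-out fits. The cause of the shifts was not tested, in these fits or in the others.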
